A study of Homo sapiens with 9 samples.

Results

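The RNA exosome and nuclear RNA decay genes comprise 33 named genes, namely the subunits of the RNA exosome core, its nucleases and cofactors, the nuclear adaptors that bring RNA to it, the cap-binding complex and its partners, the cytoplasmic SKI complex, and the 5'-3' exonucleases XRN1 and XRN2. They were chosen by symbol and not by a rule on measured values, but with earlier results of these data known. Older names were mapped to the current ones. All 33 were found among the 61806 identifiers of the count table, and all 33 passed the filter on low counts, which kept 20868 genes. Total RNA came from HCT116 cells, a long-established line of human colorectal carcinoma, and the siRNA was delivered by lipid transfection. The cells received a control siRNA, siRNA 1 against EXOSC10-AS1 or siRNA 2 against EXOSC10-AS1, with 3 libraries per group. EXOSC10-AS1 is a long non-coding RNA gene antisense to EXOSC10, the gene of the nuclear exosome nuclease. All 9 libraries carry the same batch entry, day 3, and the labels leave unsaid if replicates are separate transfections. The p-values therefore measure the spread between these libraries, which may be technical.

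The RNA exosome degrades RNA from its 3' end. In human cells its barrel-shaped core has no activity of its own: RNA is threaded through the barrel to the nuclease DIS3, or reaches EXOSC10 at the other end. In the nucleus the helicase MTREX and its adaptor complexes deliver promoter upstream transcripts, enhancer RNAs, introns and unspliced polyadenylated RNA, and the proteins on the RNA cap help to choose these targets. In the cytoplasm the SKI complex feeds messenger RNA to the exosome, while XRN1 and XRN2 degrade RNA from the 5' end in cytoplasm and nucleus.

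The targeted RNA, EXOSC10-AS1, had 26, 4 and 14 counts in controls, 4, 0 and 0 under siRNA 1 and 5, 13 and 0 under siRNA 2. Under siRNA 1 its log2 change was -3.40 ± 1.45 (adjusted p = 0.19) and under siRNA 2 -1.29 ± 1.24 (adjusted p = 0.55), so neither difference was called. EXOSC10 itself averaged 90.9 ± 2.89 CPM (read counts scaled to a fixed library total) in controls, 94.7 ± 7.51 under siRNA 1 and 99.5 ± 1.21 under siRNA 2 (mean ± SD, n = 3 libraries), and was not called (adjusted p = 0.68 and 0.27). CPM values here are scaled by library total and TMM factor. Log2 changes carry their standard error after ±, and a gene is called at an adjusted p under 0.05 in edgeR's quasi-likelihood test with Benjamini-Hochberg adjustment over all 20868 genes. Levels are RNA per library: in bulk samples, fewer cells with a transcript and less RNA per cell cannot be told apart.

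Libraries held 56.8 to 66.5 M counts. The epithelial markers EPCAM, KRT8, KRT18, KRT19 and CDH1 had at least 4360 counts in every library, the intestinal markers CDH17 and KRT20 had at most 14 and 130, and the leukocyte genes PTPRC and CD3E had 0. Of the fibroblast markers, COL1A1 had 2074 to 3630 counts and COL3A1, DCN and LUM at most 8, 40 and 22. A set of 3 knockdown libraries stood apart by the GC content of their genes: across 14533 genes the correlation of GC content with the log2 level relative to the control mean was 0.51 in siRNA 1 replicate 1 and -0.48 in both siRNA 2 replicates 2 and 3, against -0.15 to 0.05 in the other 6. Genes of 1 library share its depth and base composition, so these correlations are descriptions.

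The decay genes followed the same pattern. Their transcripts had a median GC content of 43.4%, below the 49.4% of all tested genes, and ranged from 31.8% for C1D to 61.5% for EXOSC5. Across the 33 genes the correlation was 0.70 in siRNA 1 replicate 1, -0.32 and -0.23 in siRNA 1 replicates 2 and 3, and -0.24, -0.49 and -0.54 in siRNA 2 replicates 1, 2 and 3. In siRNA 1 replicate 1 the 11 genes of lowest GC content had a median log2 deviation from the control mean of -0.51 and the 11 of highest GC content one of 0.07. In siRNA 2 replicate 3 these medians were 0.30 and -0.15, the opposite order. The lowest gene in siRNA 1 replicate 1 was XRN1, at a log2 deviation of -1.02, and the highest was EXOSC4, at 0.50. In siRNA 2 replicates 2 and 3 the lowest was EXOSC6, at -0.99 and -1.08, and the highest NCBP1, at 0.61 and 0.53. The part of GC content in each gene's change was not tested, but every comparison was also made with each library's GC trend removed, and that value is given where it changes a call.

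**Figure D1:**
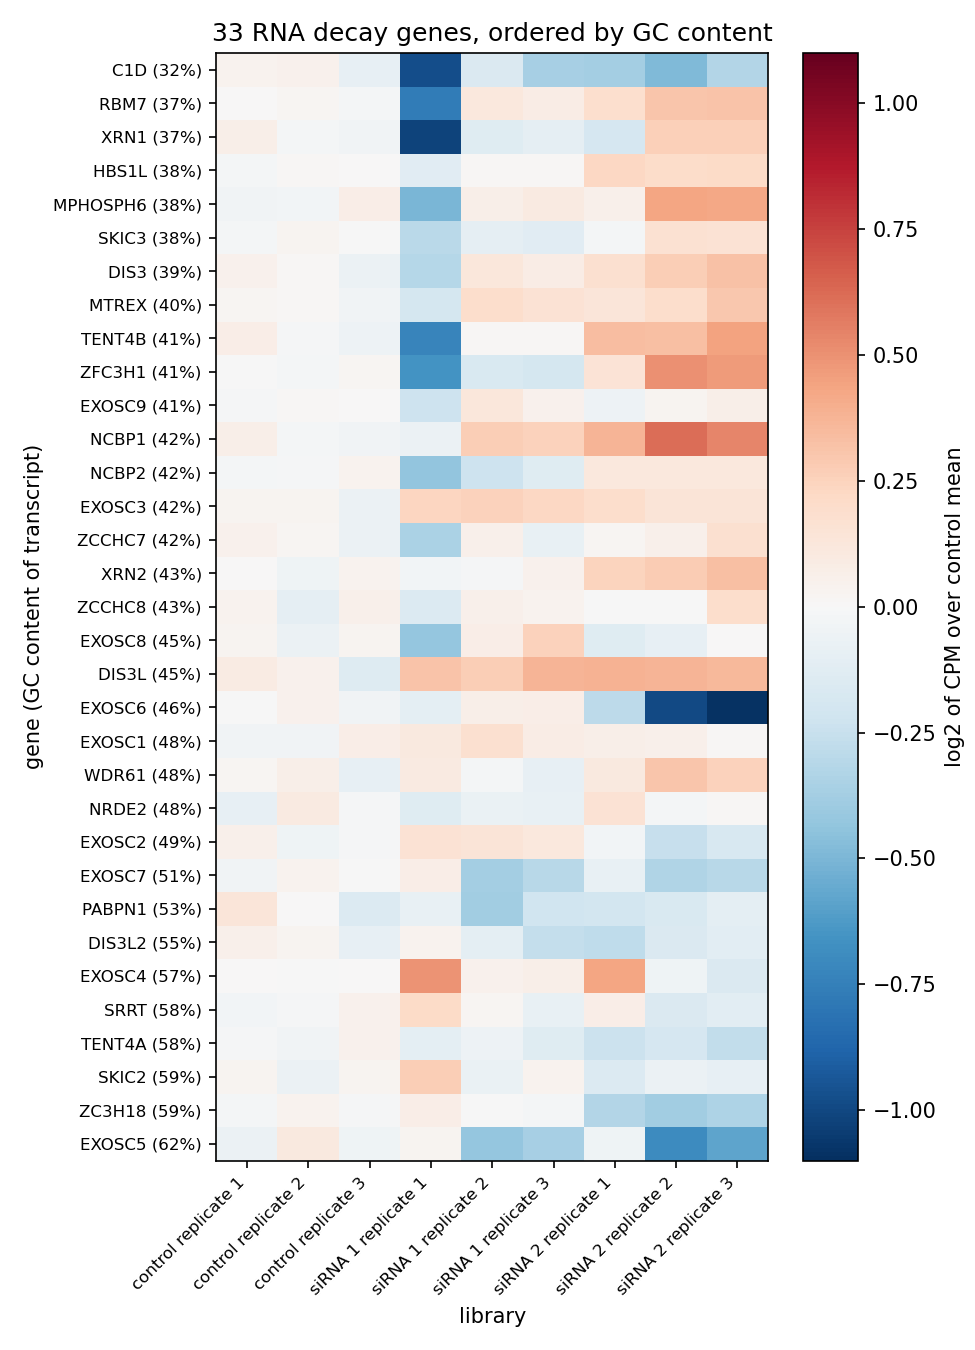
Log2 of the CPM over the control mean for the 33 RNA decay genes (rows, ordered from low to high GC content, given beside each name) in the 9 libraries (columns); red is above and blue below the control mean. In siRNA 1 replicate 1 the blue cells lie mostly among the low-GC genes, with XRN1 lowest at -1.02, and in siRNA 2 replicates 2 and 3 EXOSC6 is lowest at -0.99 and -1.08.

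**Figure D2:**
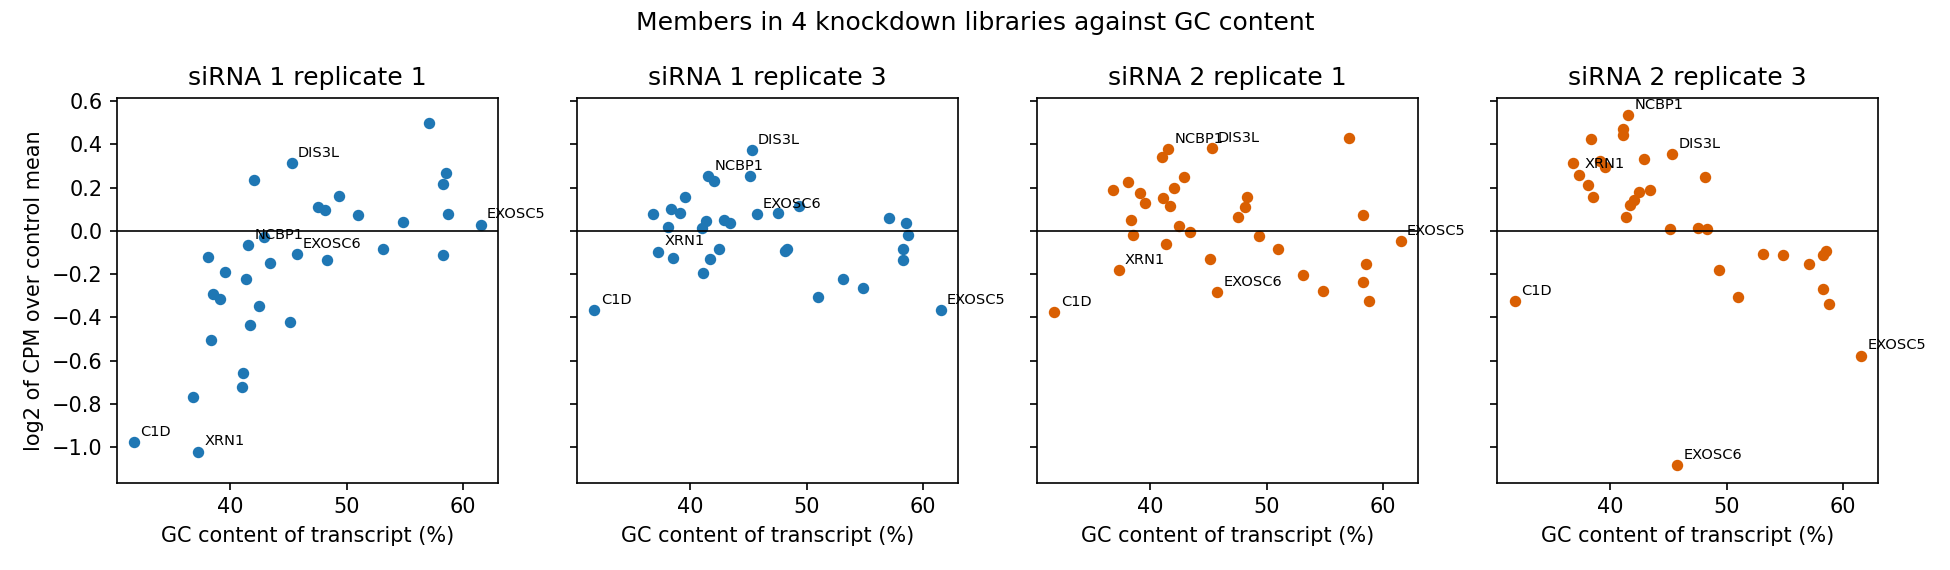
Log2 of the CPM over the control mean (vertical axis) against the GC content of the longest transcript in percent (horizontal axis) for the 33 genes in 4 knockdown libraries, 1 point per gene. The points rise with GC content in siRNA 1 replicate 1 (correlation 0.70) and fall in siRNA 2 replicate 3 (-0.54).

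The comparison of siRNA 1 with control called 0 of the 33 genes, against 7.08% of all tested genes. Without adjustment 6 had a p under 0.05, against 4912 of all 20868 tested genes. In edgeR 3.72% of all genes rose and 3.36% fell. DESeq2 called 3 of the 33 (EXOSC3 and DIS3L higher, NCBP2 lower) against 14.1% of all genes, and limma-voom called DIS3L alone against 7.58%. The median log2 change of the 33 was -0.02, equal to that of all genes at 2 decimals. In 5 of the 33 genes all siRNA 1 libraries lay above all controls and in 6 below, that is, in fewer than the 17.0% and about the 17.8% of all tested genes. Without siRNA 1 replicate 1, 4 were called (EXOSC3, NCBP1 and DIS3L higher, EXOSC7 lower), against 11.7% of all genes. Without the 3 libraries with a GC trend it was 9 against 23.5% of all genes, and with the GC trend removed 6 against 20.5% (4 higher, 11.4% of all genes, and 2 lower, 9.03%).

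The comparison of siRNA 2 with control called 6 genes, or 18.2%, against 13.8% of all tested genes, which is not far from the background. XRN2, DIS3L and NCBP1 rose (6.15% of all genes rose) and EXOSC6, ZC3H18 and TENT4A fell (7.61% fell). The median log2 change was 0.09, against -0.01 for all genes, and 21 of 33 were positive. In 12 genes all siRNA 2 libraries lay above all controls (19.7% of all genes) and in 6 below (20.2%). Removing the GC trend left 5 genes called, against 21.5% of all genes: DIS3L, NCBP1 and ZFC3H1 were higher (11.6% of all genes) and EXOSC6 and C1D lower (9.89%). The count ran from 1 without control replicate 2 (4.98% of all genes) or without siRNA 2 replicate 2 (5.06%) to 15 without siRNA 1 replicate 1 (24.4%), which enters this fit only through the spread, so the share of all genes moved in the same direction. Without the 3 libraries with a GC trend, when siRNA 2 has replicate 1 alone, it was 11 against 16.5% of all genes.

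The siRNAs were compared with each other directly, and 10 of 33 genes differed, or 30.3%, against 22.4% of all tested genes. Higher with siRNA 2 were ZFC3H1, TENT4B, NCBP2, NCBP1, XRN2, SKIC3 and HBS1L (10.1% of all genes were called higher). Lower were EXOSC6, ZC3H18 and EXOSC2 (12.3% of all genes). In 11 genes all siRNA 2 libraries lay above all siRNA 1 libraries (19.4% of all genes) and in 6 below (19.2%). Removing the GC trend left 8 genes called against 27.3% of all genes, 2 higher (13.1%) and 6 lower (14.2%), and ZFC3H1, TENT4B, EXOSC6 and EXOSC2 were those shared with the 10. A fit of these 6 libraries alone called 4 genes (XRN2, NCBP2, ZFC3H1 and ZC3H18) against 11.6% of all genes. The fits without siRNA 2 replicate 2 and without siRNA 2 replicate 3 also called 4, against 9.87% and 10.2%, and the fit without the 3 libraries with a GC trend called 9 against 16.4%. The comparisons with control share the control libraries, and each is also tied to the direct one through its own siRNA libraries, so no overlap between them is given.

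**Figure D3:**
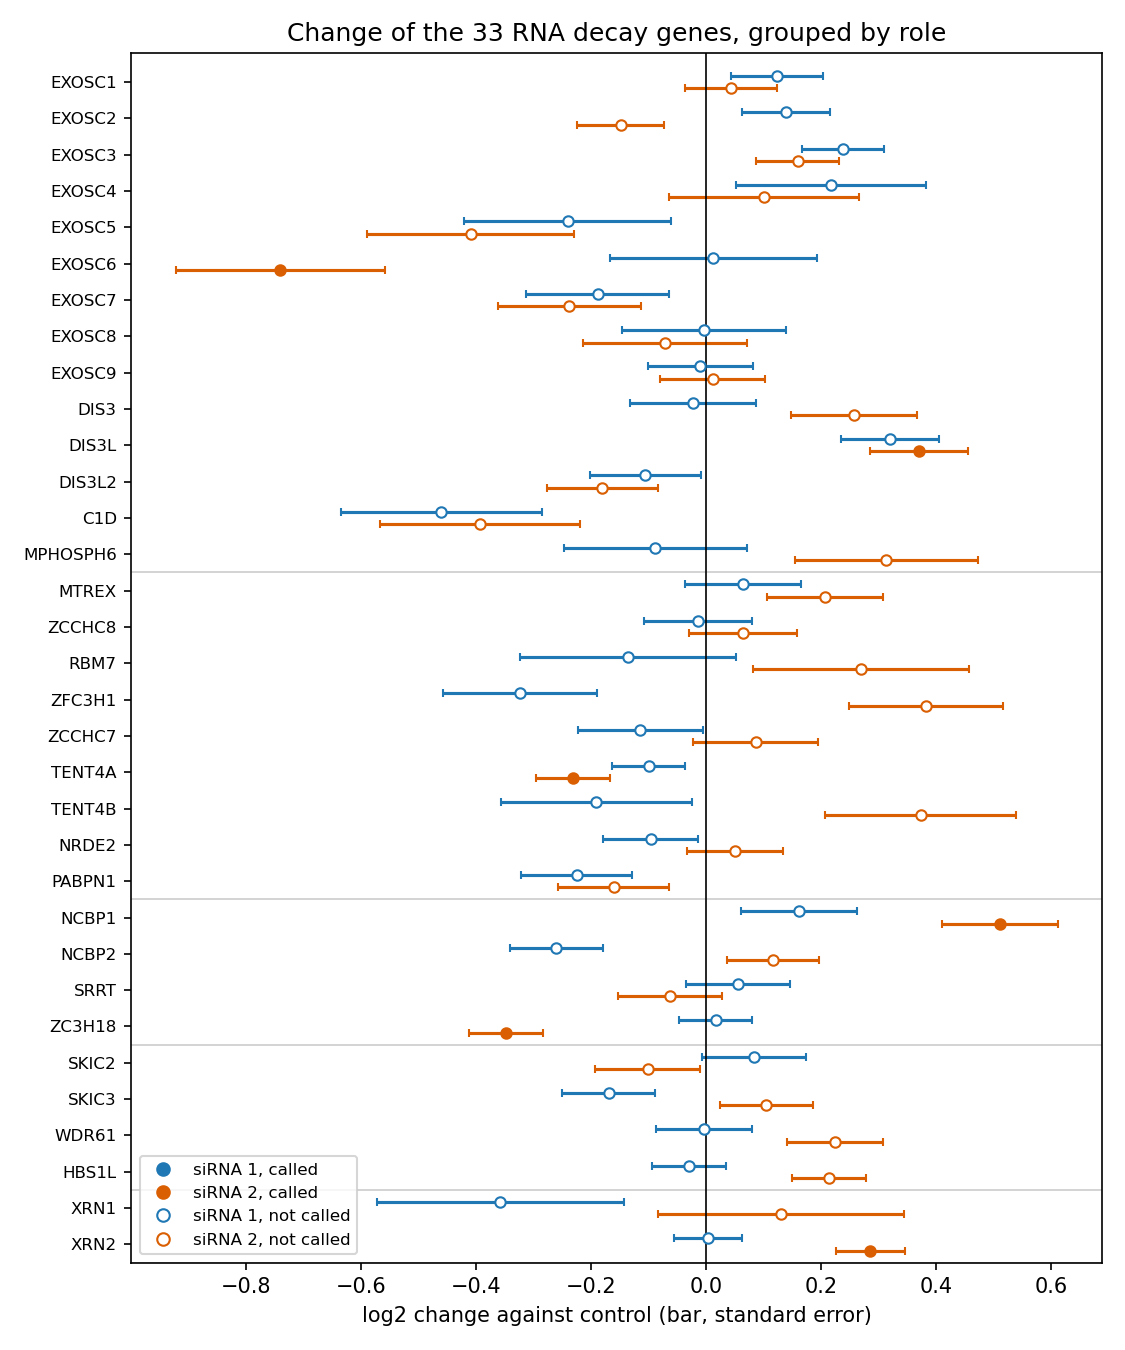
Log2 change against control (horizontal axis, bars are standard errors) of the 33 genes (vertical axis, grouped by role) with siRNA 1 (blue) and siRNA 2 (orange); filled points are called at an adjusted p under 0.05 and open points are not. The 6 filled points all belong to siRNA 2, from EXOSC6 at -0.74 to NCBP1 at 0.51.

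Of the 9 subunits of the exosome core, EXOSC1, EXOSC2 and EXOSC3 form the RNA-binding cap of the barrel and EXOSC4 to EXOSC9 its ring, made of proteins related to RNase PH. With the nucleases, C1D and MPHOSPH6 they make 14 genes, of which 0 were called with siRNA 1 (7.08% of all genes). With siRNA 2 14.3% were called, against 13.8%, and between the siRNAs 14.3%, against 22.4%. Once the GC trend was removed, 2, 3 and 5 were called, against 20.5%, 21.5% and 27.3% of all genes. EXOSC6, one of the ring subunits, fell most of all the decay genes. It was at 32.8, 34.0 and 32.0 CPM in controls, 30.6, 34.4 and 34.8 under siRNA 1 and 27.0, 16.6 and 15.5 under siRNA 2. The 3 siRNA 2 libraries were lowest, with replicates 2 and 3 well below replicate 1, while the siRNA 1 libraries spanned the control range. The level with siRNA 2 was 0.599 times that of control (log2 change -0.74 ± 0.18, adjusted p = 0.025), and with siRNA 1 it was 1.01 times (adjusted p = 0.98). Between the siRNAs the difference was -0.75 ± 0.18 (adjusted p = 0.017). After removal of the GC trend the change with siRNA 2 was -0.81 (adjusted p = 0.0088).

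The size of the EXOSC6 change rested on siRNA 2 replicates 2 and 3. Without these and siRNA 1 replicate 1, which leaves 1 siRNA 2 library assumed to vary like the others, the change was -0.28 (adjusted p = 0.024). The call against control was lost without siRNA 2 replicate 2 (adjusted p = 0.11) or 3 (0.095) and without control replicate 1 (0.079), 2 (0.087) or 3 (0.076). That against siRNA 1 was lost without siRNA 2 replicate 2 (0.073) or 3 (0.065) and in the fit of the 6 libraries alone (0.053).

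The promoter window of EXOSC6 is shown because it was the decay gene with the largest fall. It spans 250 bases before to 50 after the gene's start (RefSeq, GRCh38.p14, chr16:70251891-70252190, minus strand) and has a GC content of 62.3%.
EXOSC6: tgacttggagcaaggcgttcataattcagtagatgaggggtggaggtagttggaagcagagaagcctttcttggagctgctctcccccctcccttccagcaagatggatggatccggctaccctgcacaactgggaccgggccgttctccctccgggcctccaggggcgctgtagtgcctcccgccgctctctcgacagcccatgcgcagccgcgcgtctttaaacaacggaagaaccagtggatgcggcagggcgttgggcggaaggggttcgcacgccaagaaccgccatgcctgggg
The following motifs were searched on both strands in the windows of the 29 decay genes that have one and in all 27305 windows of the table. They were the ETS motif CCGGAAG, the NRF1 motif (GCGCA, any base, then GCGC), the YY1 motif AAGATGGC, the E2F motif TTTGGCGC, the CRE motif TGACGTCA and the E-box CACGTG. None of these letters occurs in the EXOSC6 window. Among the 29 genes, 7 held the ETS motif (24.1%, against 10.7% of all windows), 6 the NRF1 motif (20.7% against 6.28%), 4 the E-box (13.8% against 7.43%), 3 the YY1 motif (10.3% against 3.03%), and 1 each the E2F and CRE motifs (3.45% against 0.659% and 1.98%). The 27305 windows also cover genes that are not protein-coding, since 15843 protein-coding genes had a window. The 29 genes are protein-coding, so these shares are not set against like genes. The CRE motif and the E-box were added after the windows were seen, so their shares only describe windows already known. A match is a description of the letters and not a binding site.

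EXOSC2, a cap subunit, had 52.3, 48.8 and 49.9 CPM in controls, 56.4, 55.4 and 54.5 under siRNA 1 and 49.4, 42.3 and 44.5 under siRNA 2. All siRNA 1 libraries lay above all controls, and siRNA 2 replicates 2 and 3 lay below them. Against control neither difference passed (0.14 ± 0.08, adjusted p = 0.31, and -0.15 ± 0.08, adjusted p = 0.23), but with siRNA 2 the gene was lower than with siRNA 1 (-0.29 ± 0.08, adjusted p = 0.024), also with the GC trend removed (-0.28, adjusted p = 0.0062). The call of EXOSC2 was lost without control replicate 3 (adjusted p = 0.051), siRNA 1 replicate 2 (0.056) or 3 (0.051), or siRNA 2 replicate 2 (0.11) or 3 (0.092), without the 3 libraries with a GC trend (0.1), and in the fit of the 6 libraries alone (0.086).

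EXOSC3, a further cap subunit, whose mutations cause pontocerebellar hypoplasia, had 27.4, 27.5 and 25.8 CPM in controls, 31.7, 32.0 and 31.6 under siRNA 1 and 30.8, 29.6 and 29.7 under siRNA 2. Every knockdown library was above every control. Neither change was called: 0.24 ± 0.07 under siRNA 1 (adjusted p = 0.075) and 0.16 ± 0.07 under siRNA 2 (adjusted p = 0.17). With siRNA 1 it passed with the GC trend removed (0.34, adjusted p = 0.025) and without siRNA 1 replicate 1 (0.24, adjusted p = 0.042). Its difference between the siRNAs (-0.08 ± 0.07, adjusted p = 0.47) also passed with the GC trend removed (-0.30, adjusted p = 0.034). In the annotation EXOSC3 shares exon sequence with DCAF10 on the other strand, and with an unknown counting strand reads of the pair cannot be told apart.

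EXOSC5, a ring subunit, had the second lowest log2 value with siRNA 2. Its libraries were at 17.5, 19.7 and 17.7 CPM in controls, 18.6, 13.6 and 14.2 under siRNA 1 and 17.7, 11.3 and 12.3 under siRNA 2. Replicate 1 of each siRNA lay within the control range and replicates 2 and 3 below it, so the groups overlapped. The changes were -0.24 ± 0.18 (adjusted p = 0.47) and -0.41 ± 0.18 (adjusted p = 0.17). EXOSC5 also shares exon sequence with an opposite-strand gene, BCKDHA, whose log2 change with siRNA 2 was -0.90 ± 0.17 (adjusted p = 0.0086).

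EXOSC4 showed another pattern by replicate: replicate 1 of siRNA 1 and of siRNA 2 had 32.4 and 30.9 CPM, while the other 7 libraries had 20.6 to 23.9. It was not called (log2 change 0.22 ± 0.17 and 0.10 ± 0.17, adjusted p = 0.48 and 0.75). The difference between the siRNAs was -0.12 ± 0.17 (adjusted p = 0.66), and it turned to a called 0.37 (adjusted p = 0.014) without the 3 libraries with a GC trend, when siRNA 2 has only replicate 1. The cap subunit EXOSC1 (21.1 to 24.5 CPM over the 9 libraries) and the ring subunits EXOSC7 (24.0 to 32.8), EXOSC8 (35.1 to 56.0) and EXOSC9 (52.3 to 66.6) were not called in any comparison. With the GC trend removed EXOSC9 was lower with siRNA 2 than with siRNA 1 (-0.21, adjusted p = 0.004, against 0.02 ± 0.09, adjusted p = 0.89, without the removal). EXOSC8 and EXOSC9 overlap SUPT20H and CCNA2 on the other strand.

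Per kilobase of the longest coding transcript, the 9 core subunits, which assemble in equal numbers, did not have equal RNA levels in control cells. EXOSC6 was lowest, at 6.39 ± 0.20 CPM per kb, followed by EXOSC3 (14.9 ± 0.55) and EXOSC5 (16.3 ± 1.08), a gap smaller than the sum of their SDs. EXOSC4 (21.5 ± 0.06), EXOSC1 (23.5 ± 1.07) and EXOSC2 (24.7 ± 0.89) followed, the last pair within their spread. EXOSC7 (29.5 ± 0.78) lay above them, and EXOSC8 (39.2 ± 1.39) and EXOSC9 (39.6 ± 0.43) were highest and within their spread. With the median length of the coding transcripts, a choice made after seeing the data, EXOSC8 was highest of the 9 core subunits (54.6 CPM per kb). EXOSC5 moved up to 29.7, above EXOSC2 at 26.2. EXOSC6 was still lowest at 6.39, but its median coding transcript is as long as its longest (5153 bases), so this choice could not move its value. Without division by length EXOSC6 averaged 32.9 CPM in controls, between EXOSC7 at 31.1 and EXOSC8 at 47.0. The order, the place of EXOSC6 included, therefore depends on the transcript length taken.

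**Figure D4:**
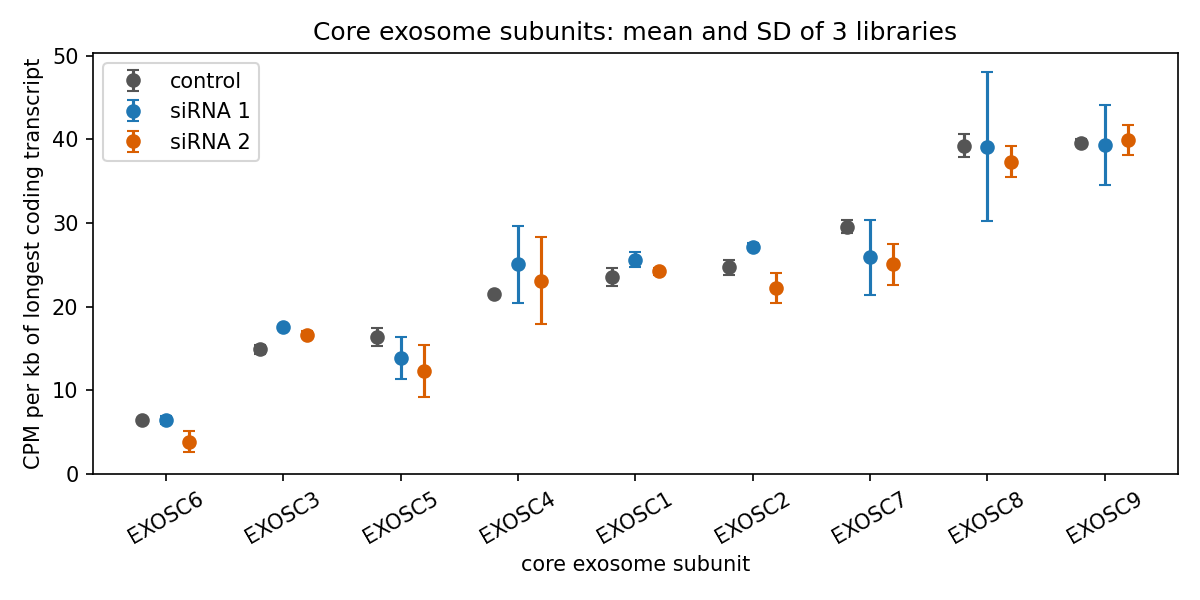
Levels of the 9 exosome core subunits in CPM per kilobase of the longest coding transcript (vertical axis, mean and SD of 3 libraries) in control (grey), siRNA 1 (blue) and siRNA 2 (orange), ordered by the control level. EXOSC6 is lowest, at 6.39 ± 0.20 CPM per kb in control, and EXOSC9 highest, at 39.6 ± 0.43.

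Of the nucleases, DIS3L, the form of DIS3 that works with the exosome in the cytoplasm, was higher with both siRNAs. It had 23.2, 22.6 and 19.8 CPM in controls, 27.2, 26.4 and 28.3 under siRNA 1 and 28.5, 28.3 and 28.0 under siRNA 2. All 6 knockdown libraries lay above all 3 controls. With siRNA 2 it rose 1.29-fold (0.37 ± 0.09, adjusted p = 0.019). With siRNA 1 the level was 1.25-fold that of control (0.32 ± 0.09), just outside the threshold (adjusted p = 0.052). The siRNAs did not differ detectably (0.05 ± 0.09, adjusted p = 0.72). Both passed after the GC trend was removed (0.34, adjusted p = 0.012, and 0.29, adjusted p = 0.023). The siRNA 2 call was lost without control replicate 2 (adjusted p = 0.063) or 3 (0.09) and without siRNA 2 replicate 2 (0.073) or 3 (0.069).

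The DIS3L window (RefSeq, GRCh38.p14, chr15:66293318-66293617, plus strand) is shown because DIS3L was the called nuclease of the exosome. Its GC content is 72.0%, and none of the searched letters occurs in it.
DIS3L: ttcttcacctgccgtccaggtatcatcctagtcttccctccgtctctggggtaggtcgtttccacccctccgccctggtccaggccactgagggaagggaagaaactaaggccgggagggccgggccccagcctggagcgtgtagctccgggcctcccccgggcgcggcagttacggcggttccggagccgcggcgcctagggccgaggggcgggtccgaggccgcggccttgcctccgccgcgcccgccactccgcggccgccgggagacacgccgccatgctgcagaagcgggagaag

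DIS3, the main nuclease of the exosome, had 94.8 ± 3.77 CPM in controls, 93.3 ± 14.9 under siRNA 1 and 113 ± 5.92 under siRNA 2 (mean ± SD, n = 3). All siRNA 2 libraries were above all controls, but the gene was not called (0.26 ± 0.11, adjusted p = 0.15). It overlaps BORA and PIBF1 on the other strand. DIS3L2, which degrades uridylated RNA without the exosome, ran from 27.2 to 34.2 CPM and was not called (-0.11 ± 0.10 with siRNA 1, adjusted p = 0.57, and -0.18 ± 0.10 under siRNA 2, adjusted p = 0.25).

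The nuclear cofactor C1D binds EXOSC10 and has the lowest GC content of the 33 genes. It had 24.1, 24.3 and 22.0 CPM in controls, 11.9, 21.0 and 18.2 under siRNA 1 and 18.0, 16.8 and 18.7 under siRNA 2. All 6 knockdown libraries lay below all 3 controls, with siRNA 1 replicate 1 lowest. Neither change was called: -0.46 ± 0.17 under siRNA 1 (adjusted p = 0.14) and -0.39 ± 0.17 under siRNA 2 (adjusted p = 0.17). Once the GC trend was removed the values parted: -0.05 with siRNA 1 (adjusted p = 0.83) and -0.57 under siRNA 2 (adjusted p = 0.012), and the difference between the siRNAs turned from 0.07 to -0.52 (adjusted p = 0.016). C1D has processed copies in the genome, of which C1DP1 had 246 counts over all libraries against 10786 for C1D. The cofactor MPHOSPH6, which tethers MTREX to the core, was not called (-0.09 ± 0.16 and 0.31 ± 0.16 with siRNA 1 and 2, adjusted p = 0.8 and 0.23).

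The nuclear adaptors share MTREX. With ZCCHC8 and RBM7 it forms the NEXT complex, which targets short unprocessed RNA, with ZFC3H1 and the poly(A)-binding protein PABPN1 the PAXT connection, which targets polyadenylated nuclear RNA, and with ZCCHC7 and the poly(A) polymerases TENT4A and TENT4B the TRAMP complex. With siRNA 1 0 of the 9 adaptor genes were called, against 7.08% of all tested genes. Without adjustment 2 had a p under 0.05, against 4912 of all 20868 tested genes. DESeq2 and limma-voom called 0, against 14.1% and 7.58% of all genes. With siRNA 2 1 fell (TENT4A, 11.1% called, against 13.8% of all tested genes). Between the siRNAs 2 were higher with siRNA 2 (ZFC3H1 and TENT4B, 22.2% called, against 22.4%). Once the GC trend was removed, 3 were called with siRNA 1, 1 with siRNA 2 and 3 between the siRNAs. The shares of all genes were then 20.5%, 21.5% and 27.3%.

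ZFC3H1, a zinc-finger protein that links MTREX to polyadenylated RNA, showed the largest rise from siRNA 1 to siRNA 2 among the 33. It had 62.7, 62.1 and 63.8 CPM in controls, 39.9, 55.8 and 55.0 under siRNA 1 and 69.8, 88.9 and 87.2 under siRNA 2. All siRNA 1 libraries lay below and all siRNA 2 libraries above the controls, and the 3 groups did not overlap. The difference between the siRNAs was 0.71 ± 0.13, or 1.63-fold (adjusted p = 0.006), and it stayed called in each fit that left out 1 library. Against control the changes were -0.32 ± 0.13 (adjusted p = 0.18) and 0.38 ± 0.13 (adjusted p = 0.088), neither called. All 3 passed once the GC trend was removed: -0.21 (adjusted p = 0.031), 0.25 (adjusted p = 0.013) and, between the siRNAs, 0.46 (adjusted p = 2.9e-04). ZFC3H1 overlaps THAP2, which had far fewer counts (1293 against 36138 over all libraries).

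TENT4B, a non-canonical poly(A) polymerase that adds short tails to nuclear decay substrates, had 37.7, 35.5 and 34.4 CPM in controls, 21.7, 36.3 and 36.2 under siRNA 1 and 45.4, 45.1 and 48.8 under siRNA 2. The siRNA 2 libraries were all above the other 6, and siRNA 1 replicate 1 was far below the rest. Between the siRNAs it was higher with siRNA 2 (0.56 ± 0.17, adjusted p = 0.036), and with the GC trend removed the difference was 0.34 (adjusted p = 0.013). The call of TENT4B was lost without control replicate 1 (adjusted p = 0.051), 2 (0.054) or 3 (0.053), without siRNA 2 replicate 2 (0.089) or 3 (0.11), with no filter on low counts (0.07) and in the fit of the 6 libraries alone (0.08). Against control it was not called (-0.19 ± 0.17 and 0.37 ± 0.17, adjusted p = 0.54 and 0.17).

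TENT4A, the close relative of TENT4B, went the other way with siRNA 2. It had 75.7, 74.3 and 78.9 CPM in controls, 70.7, 73.5 and 69.4 under siRNA 1 and 64.7, 67.0 and 63.3 under siRNA 2. All siRNA 2 libraries lay below all siRNA 1 libraries, and these below all controls. It fell with siRNA 2 to 0.852 times the control level (-0.23 ± 0.06, adjusted p = 0.039), and with siRNA 1 the change was -0.10 ± 0.06 (adjusted p = 0.39). This call was among the least stable: with the GC trend removed the change was -0.05 (adjusted p = 0.73), and the replicate block, upper quartile factors and no filter on low counts gave an adjusted p of 0.05, 0.092 and 0.054. It was also lost without control replicate 1 (adjusted p = 0.14), 2 (0.11) or 3 (0.18), siRNA 1 replicate 2 or 3 (0.066 each), or siRNA 2 replicate 2 (0.096) or 3 (0.15).

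The other adaptor genes were not called in any comparison. MTREX was at 92.1 ± 2.01 CPM in controls, 96.3 ± 13.6 under siRNA 1 and 106 ± 6.29 under siRNA 2, and all siRNA 2 libraries lay above all controls (0.21 ± 0.10, adjusted p = 0.21). After removal of the GC trend MTREX passed with siRNA 1 (0.23, adjusted p = 0.011), and its difference between the siRNAs turned from 0.14 to a called -0.17 (adjusted p = 0.037). RBM7, the RNA-binding subunit of NEXT, had 35.1 to 36.2 CPM in controls, 21.0 to 38.7 under siRNA 1 and 40.7 to 44.3 under siRNA 2. Its lowest value was that of siRNA 1 replicate 1. ZCCHC8, the NEXT scaffold (25.9 to 32.8 CPM over the 9 libraries), ZCCHC7 (20.6 to 29.7) and NRDE2, which binds MTREX and restrains it (30.4 to 37.2), were not called either, and MTREX and NRDE2 overlap PLPP1 and PSMC1 on the other strand. PABPN1 ran from 97.7 to 119 CPM in control and from 83.3 to 103 with siRNA 1 (-0.22 ± 0.10, adjusted p = 0.19), and passed with siRNA 1 with the GC trend removed (-0.26, adjusted p = 0.042). PABPN1 shares exons on its own strand with the readthrough gene BCL2L2-PABPN1, so its counts are uncertain.

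The cap-binding complex consists of NCBP1, its large subunit, and NCBP2, which holds the cap. SRRT, also called ARS2, binds the complex, and ZC3H18 links it to the nuclear exosome adaptors. With siRNA 2, 1 of the 4 rose (NCBP1) and 1 fell (ZC3H18), or 50% called against 13.8% of all tested genes. Between the siRNAs NCBP1 and NCBP2 were higher and ZC3H18 lower with siRNA 2 (75% called, against 22.4%). Once the GC trend was removed, 0 of the 4 were called between the siRNAs, against 27.3% of all genes. In that fit 1 was called with siRNA 1 (20.5% of all genes) and 1 with siRNA 2 (21.5%). With siRNA 1 0 of 4 were called against control, against 7.08% of all tested genes. Without adjustment 1 had a p under 0.05, against 4912 of all 20868 tested genes. DESeq2 called NCBP2 and limma-voom 0, against 14.1% and 7.58% of all genes.

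NCBP1 had the largest rise of the 33 genes against control. It had 74.3, 70.3 and 69.2 CPM in controls, 68.1, 86.1 and 84.9 under siRNA 1 and 92.6, 109 and 103 under siRNA 2. The siRNA 2 libraries were above the other 6, and siRNA 1 replicate 1 was below all controls while siRNA 1 replicates 2 and 3 were above them. With siRNA 2 it rose 1.43-fold (0.51 ± 0.10, adjusted p = 0.011), a call lost only without siRNA 2 replicate 2 among the fits that left out 1 library (adjusted p = 0.054). With siRNA 1 it was not called (0.16 ± 0.10, adjusted p = 0.38), but without siRNA 1 replicate 1 the change was 0.27 (adjusted p = 0.041) and with the GC trend removed 0.27 (adjusted p = 0.003). The difference between the siRNAs was 0.35 ± 0.10 (adjusted p = 0.033) and was not called with the GC trend removed (0.12, adjusted p = 0.089). It was also lost without control replicate 2 (0.052) or 3 (0.051), without siRNA 2 replicate 2 (0.13) or 3 (0.1), without the 3 libraries with a GC trend (0.18), with no filter on low counts (0.06) and in the fit of the 6 libraries alone (0.082).

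NCBP2 had 99.8, 100.3 and 104 CPM in controls, 74.9, 86.3 and 92.5 under siRNA 1 and 109.6, 109.8 and 110.0 under siRNA 2. All siRNA 1 libraries were below and all siRNA 2 libraries above the controls. The difference between the siRNAs was 0.38 ± 0.08 (adjusted p = 0.01) and stayed called in each fit that left out 1 library, but with the GC trend removed it was 0.15 (adjusted p = 0.05, not under the threshold before rounding). Against control NCBP2 was not called (-0.26 ± 0.08, adjusted p = 0.081, and 0.12 ± 0.08, adjusted p = 0.39). SRRT had 157 to 203 CPM over the 9 libraries, highest in siRNA 1 replicate 1, and was not called.

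ZC3H18, a zinc-finger protein, had the smallest adjusted p of the 33 genes in both comparisons that involve siRNA 2. It had 73.8, 77.2 and 74.2 CPM in controls, 79.1, 74.6 and 74.1 under siRNA 1 and 60.0, 57.5 and 59.4 under siRNA 2. The siRNA 2 libraries were alike and below the other 6, while the siRNA 1 libraries overlapped the controls. The level with siRNA 2 was 0.786 times that of control (-0.35 ± 0.06, adjusted p = 0.0073), and that with siRNA 1 1.01 times (adjusted p = 0.91). The difference between the siRNAs was -0.36 ± 0.06 (adjusted p = 0.004). With a GC content of 58.8%, among the highest of the 33, it lost both calls with the GC trend removed (-0.15, adjusted p = 0.083, and -0.15, adjusted p = 0.076). Of the fits that left out 1 library, the call against control was lost without control replicate 2 (adjusted p = 0.055).

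The ZC3H18 window (RefSeq, GRCh38.p14, chr16:88570153-88570452, plus strand) is shown as that of the called cap-complex partner, with the matched letters in capitals. Its GC content is 77.0%. Counted from the gene's start, the E-box begins at -231, the NRF1 motif at -200 and again at -150, and the ETS motif at -73, and these matches do not overlap.
ZC3H18: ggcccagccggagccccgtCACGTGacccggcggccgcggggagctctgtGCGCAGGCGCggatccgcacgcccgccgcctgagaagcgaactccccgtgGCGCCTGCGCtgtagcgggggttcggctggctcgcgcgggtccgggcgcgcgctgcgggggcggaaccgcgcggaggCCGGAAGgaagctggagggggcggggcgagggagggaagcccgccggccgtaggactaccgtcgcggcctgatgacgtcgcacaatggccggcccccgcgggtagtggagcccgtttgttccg

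**Figure D5:**
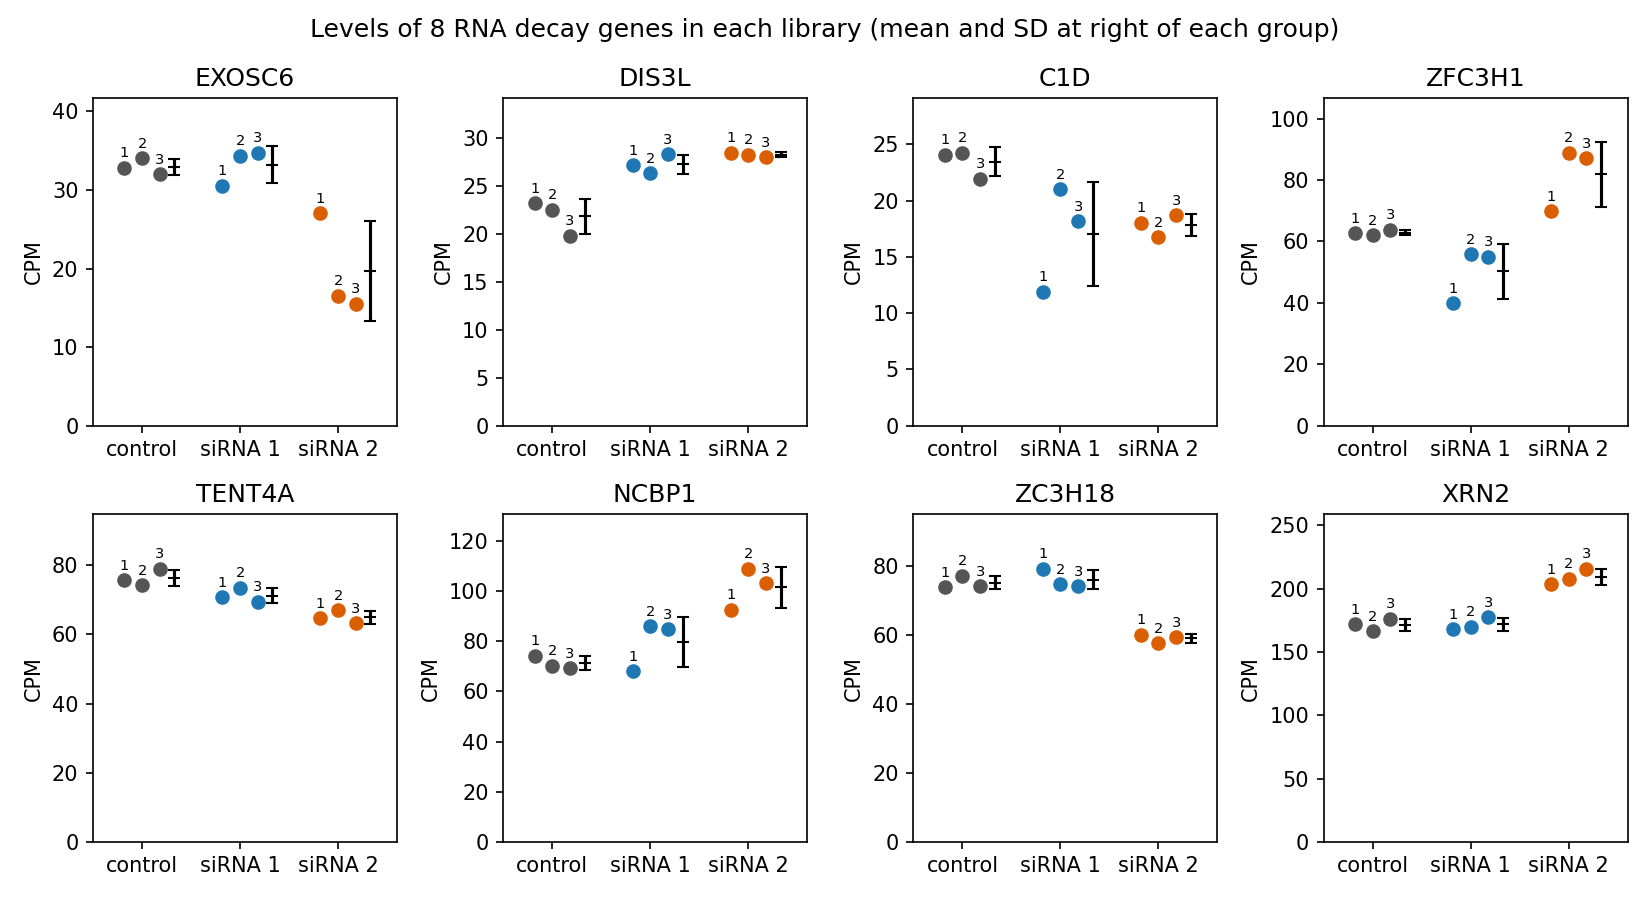
CPM (vertical axis, from 0) of 8 decay genes in each library, with the replicate number above each point and the mean and SD of the 3 libraries at the right of each group (control grey, siRNA 1 blue, siRNA 2 orange). EXOSC6 with siRNA 2 spreads from 15.5 to 27.0 CPM, while the siRNA 2 libraries of ZC3H18 (57.5 to 60.0) and XRN2 (203.4 to 215.5) lie close together and apart from the other groups.

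In the SKI complex SKIC2 is the helicase, SKIC3 the scaffold and WDR61 the beta-propeller subunit, and HBS1L, a GTPase gene, has a short isoform that bridges the complex to the cytoplasmic exosome. With siRNA 1, 0 of these 4 genes were called, against 7.08% of all tested genes. Without adjustment 0 had a p under 0.05, against 4912 of all 20868 tested genes. DESeq2 and limma-voom called 0, against 14.1% and 7.58% of all genes. With siRNA 2 0 passed, against 13.8% of all tested genes. An unadjusted p under 0.05 was found for 2 of the 4, against 6012 of all 20868 tested genes. DESeq2 called HBS1L and limma-voom 0, against 20.2% and 14.7% of all genes. Between the siRNAs HBS1L and SKIC3 were higher with siRNA 2 (50% called, against 22.4%). Once the GC trend was removed, 0 of the 4 were called between the siRNAs, against 27.3% of all genes.

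HBS1L had 80.4, 82.3 and 81.8 CPM in controls, 74.8, 82.3 and 82.4 under siRNA 1 and 95.2, 93.9 and 94.4 under siRNA 2. The siRNA 2 libraries were alike and above the other 6. Between the siRNAs the difference was 0.24 ± 0.06 (adjusted p = 0.025), and against control siRNA 2 fell just outside the threshold (0.21 ± 0.06, adjusted p = 0.055). With the GC trend removed the difference between the siRNAs turned to -0.15 (adjusted p = 0.39). It was not called without siRNA 2 replicate 2 (adjusted p = 0.077) or 3 (0.081) or in the fit of the 6 libraries alone (0.088).

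SKIC3 had 53.0, 54.8 and 53.7 CPM in controls, 43.9, 50.3 and 49.4 under siRNA 1 and 53.2, 60.5 and 60.0 under siRNA 2. The siRNA 1 libraries lay below all others, and siRNA 2 overlapped the control. The difference between the siRNAs was 0.27 ± 0.08 (adjusted p = 0.036) and turned to -0.10 with the GC trend removed (adjusted p = 0.51). The call of SKIC3 was lost without any 1 control (adjusted p = 0.059 each), without siRNA 1 replicate 3 (0.055), without siRNA 2 replicate 2 or 3 (0.13 each), without the 3 libraries with a GC trend (0.27), with no filter on low counts (0.06) and in the fit of the 6 libraries alone (0.1). WDR61 was above all other libraries in each siRNA 2 library but was not called (0.22 ± 0.08 against control, adjusted p = 0.11), nor was SKIC2 (48.0 to 64.1 CPM over the 9 libraries), which overlaps NELFE on the other strand.

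XRN2, the nuclear 5'-3' exonuclease that also acts in transcription termination, had 172, 166 and 176 CPM in controls, 168, 169.9 and 177 under siRNA 1 and 203, 208 and 216 under siRNA 2. The siRNA 2 libraries were all above the other 6, and the siRNA 1 libraries overlapped the controls. It rose 1.22-fold with siRNA 2 (0.29 ± 0.06, adjusted p = 0.013), and with siRNA 1 the change was 0.00 ± 0.06 (adjusted p = 0.98). The siRNAs differed by 0.28 ± 0.06 (adjusted p = 0.0093). Neither passed once the GC trend was removed (0.18, adjusted p = 0.072, and 0.10, adjusted p = 0.29). The call against control was lost without control replicate 1 (adjusted p = 0.06) or 2 (0.071) and without siRNA 2 replicate 2 (0.054) or 3 (0.066).

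The XRN2 window (RefSeq, GRCh38.p14, chr20:21303081-21303380, plus strand) is shown as that of the called 5'-3' exonuclease, with the matched letters in capitals. Its GC content is 72.0%. The CRE motif begins at -54 and the E-box at -28 from the gene's start, without overlap, and XRN2 was the only decay gene whose window held the CRE letters. Both motifs were added to the search after the windows were seen.
XRN2: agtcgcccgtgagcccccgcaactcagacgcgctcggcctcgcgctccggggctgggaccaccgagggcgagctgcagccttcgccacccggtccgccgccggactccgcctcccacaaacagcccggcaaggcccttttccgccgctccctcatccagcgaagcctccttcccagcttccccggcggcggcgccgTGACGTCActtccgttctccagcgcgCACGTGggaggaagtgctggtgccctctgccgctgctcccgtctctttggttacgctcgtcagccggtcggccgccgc

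XRN1, the cytoplasmic 5'-3' exonuclease that follows decapping, had 54.3, 51.4 and 50.6 CPM in controls, 25.7, 47.5 and 48.7 under siRNA 1 and 45.9, 62.6 and 62.4 under siRNA 2. The siRNA 1 libraries lay below the controls, replicate 1 far below, and the siRNA 2 libraries lay on both sides of them. It was not called (-0.36 ± 0.21, adjusted p = 0.36, 0.13 ± 0.21, adjusted p = 0.75, and, between the siRNAs, 0.49 ± 0.21, adjusted p = 0.13). Without siRNA 1 replicate 1 its change with siRNA 1 was -0.11 (adjusted p = 0.64).

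Several decay genes start next to another gene on the other strand. Of the 29 with a promoter window, 9 (31.0%) had a protein-coding start on the opposite strand within 1000 bases, against 1946 of 15843 protein-coding genes (12.3%). The pairs were EXOSC5 and BCKDHA, EXOSC7 and ZDHHC3, DIS3 and PIBF1, MTREX and DHX29, RBM7 and C11orf71, ZFC3H1 and THAP2, NCBP2 and NCBP2AS2, SKIC2 and NELFE, and SKIC3 and ARSK. The closest starts were those of EXOSC7 and ZDHHC3, 70 bases apart. With siRNA 2 the partner BCKDHA fell (-0.90 ± 0.17, adjusted p = 0.0086), and this call held in every alternative fit. NCBP2AS2 fell (-0.79 ± 0.21, adjusted p = 0.033), a call lost without control replicate 1 (0.09), 2 (0.09) or 3 (0.12) or siRNA 2 replicate 2 (0.11) or 3 (0.085), without the 3 libraries with a GC trend (0.17) and with no filter on low counts (0.065). NELFE fell (-0.33 ± 0.10, adjusted p = 0.045), a call lost without control replicate 1 (0.15), 2 (0.15) or 3 (0.13), siRNA 1 replicate 2 (0.071) or 3 (0.062), or siRNA 2 replicate 2 (0.18) or 3 (0.17), and with upper quartile factors (0.085) or no filter on low counts (0.079). Their decay genes EXOSC5, NCBP2 and SKIC2 were not called with siRNA 2 (log2 changes -0.41, 0.12 and -0.10). Whether a decay gene and its partner changed by different amounts was not tested.

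Further genes of RNA decay outside the 33 were counted in 4 lists, also chosen with earlier results of these data known. Of 16 further nuclear decay and termination genes, EXOSC10 among them, 0 were called with siRNA 1, against 7.08% of all tested genes. Without adjustment 6 had a p under 0.05, against 4912 of all 20868 tested genes. DESeq2 called 3 and limma-voom 0, against 14.1% and 7.58% of all genes. With siRNA 2, 1 rose and 2 fell (18.8% called, against 13.8% of all tested genes), and between the siRNAs 4 were higher with siRNA 2 and 2 lower (37.5%, against 22.4%). The list's median log2 change was 0.03 with siRNA 1 and 0.15 with siRNA 2, against -0.02 and -0.01 for all genes. INTS11, the nuclease of the Integrator complex, had 112, 117 and 115 CPM in controls, 132, 110.2 and 107 under siRNA 1 and 94.7, 69.3 and 68.0 under siRNA 2. Like EXOSC6, it was lowest in siRNA 2 replicates 2 and 3, with siRNA 2 replicate 1 between these and the other libraries. It fell with siRNA 2 (-0.57 ± 0.13, adjusted p = 0.019; -0.33 with the GC trend removed, adjusted p = 0.002). The call was lost without control replicate 1 (0.064), 2 (0.077) or 3 (0.075) or siRNA 2 replicate 2 (0.085) or 3 (0.084). WDR82, a partner of the restrictor of early transcription ZC3H4, was also lower with siRNA 2 (-0.46 ± 0.07 against siRNA 1, adjusted p = 0.002, a call held in every alternative). Against control it fell with siRNA 2 (-0.33 ± 0.07, adjusted p = 0.012), a call lost without control replicate 1 (0.064), 2 (0.061) or 3 (0.054) or siRNA 2 replicate 2 (0.064) or 3 (0.062).

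Of 32 deadenylation and decapping genes, 1 rose and 2 fell with siRNA 1 (9.38% called, against 7.08% of all tested genes), and 2 rose and 2 fell with siRNA 2 (12.5%, against 13.8%). Between the siRNAs 4 were higher with siRNA 2 and 4 lower (25%, against 22.4%). BTG2, which recruits the CCR4-NOT deadenylase, had 68.4, 64.7 and 67.8 CPM in controls, 89.9, 98.0 and 90.9 under siRNA 1 and 85.6, 86.8 and 80.0 under siRNA 2. All 6 knockdown libraries were above the controls. It rose with siRNA 1 (0.47 ± 0.07, adjusted p = 0.0041) and also under siRNA 2 (0.33 ± 0.07, adjusted p = 0.013), the latter call being lost without control replicate 1 (0.051), 2 (0.067) or 3 (0.054) or siRNA 2 replicate 2 (0.064). The deadenylase CNOT6 had 101, 103 and 98.6 CPM in controls, 41.5, 66.4 and 67.3 under siRNA 1 and 115, 116 and 116 under siRNA 2, and the 3 groups did not overlap. It fell with siRNA 1 (-0.79 ± 0.15, adjusted p = 0.014), a call lost without control replicate 1 (0.056), 2 (0.059) or 3 (0.054), and it differed between the siRNAs by 0.98 ± 0.15 (adjusted p = 0.0024). TOB1, a relative of BTG2, fell with siRNA 1 in every alternative (-0.45 ± 0.07, adjusted p = 0.0073).

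Of 16 nonsense-mediated and no-go decay genes, 0 were called with siRNA 1, against 7.08% of all tested genes. Without adjustment 1 had a p under 0.05, against 4912 of all 20868 tested genes. DESeq2 called 1 and limma-voom 0, against 14.1% and 7.58% of all genes. Between the siRNAs 1 was higher with siRNA 2 and 3 lower (25%, against 22.4%). With siRNA 2 1 rose against control (6.25%, against 13.8%). That was UPF2, a core factor of nonsense-mediated decay (0.35 ± 0.09, adjusted p = 0.031). Its call was lost with the GC trend removed (0.22, adjusted p = 0.051), with no filter on low counts (0.054), and without control replicate 1 (0.086), 2 (0.097) or 3 (0.11) or siRNA 2 replicate 2 (0.1) or 3 (0.13).

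Of 14 tailing enzymes and other exonucleases, 1 rose and 1 fell with siRNA 1 (14.3% called, against 7.08% of all tested genes) and 3 rose and 2 fell with siRNA 2 (35.7%, against 13.8%). Between the siRNAs 2 were higher with siRNA 2 and 2 lower (28.6%, against 22.4%). The poly(A) polymerase TENT2 had 46.1, 47.8 and 47.4 CPM in controls, 29.7, 36.3 and 35.1 under siRNA 1 and 57.9, 61.0 and 60.0 under siRNA 2. As with ZFC3H1, all siRNA 1 libraries lay below and all siRNA 2 libraries above the controls. TENT2 fell with siRNA 1 (-0.48 ± 0.08, adjusted p = 0.0088, lost without control replicate 2 at 0.05 after rounding) and the siRNAs differed by 0.82 ± 0.08 (adjusted p = 2.8e-04, called in every alternative). It rose with siRNA 2 (0.34 ± 0.08, adjusted p = 0.025), a call lost with the GC trend removed (0.19, adjusted p = 0.11) and without control replicate 1 (0.095), 2 (0.078) or 3 (0.083) or siRNA 2 replicate 2 (0.1) or 3 (0.091). ISG20, an interferon-inducible exonuclease, had 8.93, 8.48 and 10.3 CPM in controls, 13.7, 11.8 and 11.9 under siRNA 1 and 5.51, 4.35 and 4.21 under siRNA 2. It was highest with siRNA 1 and lowest with siRNA 2, without overlap. It fell with siRNA 2 in every alternative (-0.98 ± 0.14, adjusted p = 0.0024), and the siRNAs differed by -1.41 ± 0.14 (adjusted p = 2.8e-04).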

How the data were processed

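Total RNA of 9 HCT116 libraries was analysed. The authors deposited raw read counts per Ensembl gene identifier, per the labels. The build was hg19 per the submitters' processing notes. The sources used here give no aligner, counter, annotation, strand or handling of multiply mapped reads. All 9 value columns were matched to samples by title, leaving 0 unused. Of 61806 identifiers, 61757 had a symbol, and WDR61 was matched through its newer name.

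Groups came from the sample titles. Counts were tested with edgeR 4.0.16 (glmQLFit, glmQLFTest, two-sided, TMM factors) in R 4.3.3, with 1 model of group means over all 9 libraries and no replicate block. filterByExpr (minimum count 10, minimum total 15) kept 20868 genes with 99.96% of counts, with a common biological coefficient of variation of 20.0%. P-values were adjusted by Benjamini-Hochberg over these genes, with a threshold of 0.05. Libraries of a group differed by more than sampling noise (chi-square per degree of freedom of at least 7.62), so each counted once. Replicate 1 stood apart in both siRNA groups. Against replicates 2 and 3 its values were 81.1 and 78.1 with siRNA 1 and 45.2 and 46.7 with siRNA 2. Between replicates 2 and 3 the values were 9.29 and 8.32, and between controls 7.62 to 10.7. The scripts were tested on simulated counts with less spread between libraries than in these data and no GC trend. That test gives no error rate for these libraries. Reads carried no molecular identifiers.

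GC content and length are those of the longest coding transcript in GENCODE v29 (GRCh38), used also for neighbours and overlaps. Promoter windows are from RefSeq (GRCh38.p14). No coordinates were moved between builds. EXOSC1, EXOSC4, TENT4A and NCBP1 had no window. The CRE and E-box motifs were added after the windows were seen. The GC trend of each library was a lowess curve (span 0.3) entered as an offset.

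Library values are given for members called in any comparison and, per comparison, for the 2 largest rises and falls. The members, the role lists and the related lists were chosen with earlier results of these data known. Alternatives were RLE and upper quartile factors, DESeq2 1.42.0, limma-voom 3.58.1, no filter or at least 1 CPM in 3 libraries, only the groups compared, a replicate block, the GC trend removed with and without that block, each library left out, and the 3 libraries with a GC trend left out together. Replicate numbers come from the titles. Deviations of same-numbered libraries from their group means correlated at -0.045 to 0.096, so the numbers were not taken to pair libraries.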

Additional observations from a re-analysis of the deposited data

Results flagged for a closer look

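The log2 changes of 8 decay genes against control had opposite signs with siRNA 1 and siRNA 2, some of them near 0. The siRNAs differed for these genes by the test of siRNA 2 against siRNA 1 (edgeR, adjusted p under 0.05). The log2 differences were -0.29 for EXOSC2, -0.75 for EXOSC6, -0.36 for ZC3H18, 0.71 for ZFC3H1, 0.56 for TENT4B, 0.38 for NCBP2, 0.27 for SKIC3 and 0.24 for HBS1L. Against control 0 of the 8 were called with siRNA 1 in this fit, and 2 (EXOSC6 and ZC3H18) were with siRNA 2. The siRNA 1 libraries overlapped the controls for EXOSC6, ZC3H18, HBS1L and TENT4B (log2 change 0.01, 0.02, -0.03 and -0.19), and the siRNA 2 libraries did for EXOSC2 and SKIC3. For ZFC3H1 and NCBP2 all siRNA 1 libraries lay below and all siRNA 2 libraries above the controls. The libraries' GC trends ran in opposite directions in siRNA 1 replicate 1 (correlation 0.51) and siRNA 2 replicates 2 and 3 (-0.48). Of the 8 genes, 7 have transcripts below the 49.4% median GC content of all tested genes. The median of all decay genes is 43.4%, so most decay genes lie below 49.4% too, and this count alone does not set the 8 apart. Whether GC content caused the opposite signs was not tested. Of the 8, those higher with siRNA 2 have 38.1% to 41.7% GC. Those lower have 45.7% (EXOSC6), 49.4% (EXOSC2, under the median of all tested genes before rounding) and 58.8% (ZC3H18). With the GC trend removed, ZFC3H1, TENT4B, EXOSC6 and EXOSC2 were still called. The changes against control with siRNA 1 and siRNA 2 then had the same sign for NCBP2 (-0.158 and -0.005), ZC3H18 (-0.003 and -0.150) and HBS1L (0.213 and 0.063). For EXOSC2, EXOSC6, ZFC3H1, TENT4B and SKIC3 the signs stayed opposite.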

How the results depend on the processing

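The count of called decay genes with siRNA 1 was 0, and it was 1 with RLE factors, upper quartile factors, limma-voom or the filter at 1 CPM, 3 with DESeq2, 6 with the GC trend removed, 5 with the GC trend removed and a replicate block, and 9 without the 3 libraries with a GC trend. Of all tested genes 7.08% were called, 6.77% to 11.6% in the fits with 1, 14.1% with DESeq2, 20.5% with the GC trend removed and 18.9% with the block added. Leaving out 1 library at a time gave 0 to 4 (2.02% to 11.7% of all genes). With siRNA 2 the count of 6 (13.8% of all genes) became 14 in the fit of the groups compared only (23.3%). It was also higher without the 3 libraries, which leaves 1 siRNA 2 library. Leaving out 1 library gave 1 to 15 (4.98% to 24.4%). Between the siRNAs the count of 10 (22.4%) became 4 in the fit of the groups compared only (11.6%). Leaving out 1 library gave 4 to 12 (9.87% to 26.9%). The counts of the other alternatives stayed within 1.5 times. Some single genes reversed between the siRNAs: HBS1L turned to -0.15 with the GC trend removed and -0.14 with the block added, SKIC3 to -0.10 and -0.092, MTREX to -0.17 and -0.17, C1D to -0.52 and -0.51, EXOSC9 to -0.21 and -0.21, and EXOSC4 to 0.37 without the 3 libraries. Of these, MTREX, C1D and EXOSC9 were called with the GC trend removed. Fits with fewer libraries have fewer degrees of freedom, and the cause of these changes was not tested.

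A replicate block gave 0 called genes with siRNA 1, against 7.58% of all tested genes. With siRNA 2 it gave 6 (5 of the same genes, ZFC3H1 in place of TENT4A), against 15.9%, and between the siRNAs 11, against 24.7%. The libraries share only a number, so the block is not a pairing. The 33 genes had at least 681 counts in each library, whereas EXOSC10-AS1 had 0 to 26.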
